A study of Mus musculus with 20 samples.

Results

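The elastic fibre genes are 10 of the 21078 genes in the deposited table of aortic read counts, chosen by symbol as elastin (Eln), fibrillin-1 (Fbn1), 4 fibulins (Fbln1, Fbln2, Fbln5 and Efemp2), the microfibril-associated genes Mfap4 and Mfap5, and the lysyl oxidases Lox and Loxl1. All 10 had reads in every mouse and all 10 were tested, as were 13124 genes in all whose counts averaged 5 or more. RNA was measured in the aorta of 20 adult male wildtype C57BL/6 mice aged 10 to 12 weeks, of which 10 received protons and 10 received gamma rays from a cesium source. Whole-body doses were 0, 5, 10, 25, 50, 75, 100, 125, 150 and 200 cGy, with 1 mouse for each dose and radiation type, and the thoracic aorta was taken 4 h after exposure. The 0 cGy mice were restrained in the proton or gamma irradiator without being exposed, so they share the handling of the other mice. No dose had a replicate within a radiation type. No p-value below therefore rests on the spread among mice given the same dose of the same radiation. The tests are of trends over doses, of differences across matched doses and of correlations over mice.

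Elastic fibres give the aortic wall its recoil. Elastin is secreted as a soluble precursor, gathered by fibulins onto a scaffold of fibrillin microfibrils, and cross-linked by lysyl oxidases into an insoluble polymer. In the aorta the medial smooth muscle cells lay down most of this elastin early in life, and the finished fibres turn over very slowly.

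The deposited counts had been resampled to a common depth and summed to between 6051657 and 6058006 per mouse. The summed smooth muscle markers were high in every mouse, at 41315 to 59805 CPM (counts scaled to a common library size) in 19 mice and 27774 in the proton mouse at 75 cGy. That mouse stood apart from the other 19. Its striated muscle markers summed to 2389 CPM against 21.4 to 64.8 elsewhere, its brown fat markers to 2465 against 161 to 961, and its adipocyte markers to 8415 against 680 to 3183. None of the 8 striated muscle markers was at 0 in all mice. This mouse had the lowest count of all 20 mice for 7 of the 10 elastic fibre genes, namely Eln, Fbn1, Fbln5, Efemp2, Mfap4, Mfap5 and Lox. The share of all genes that were lowest in this mouse was not computed, so the 7 cannot be set against it. In bulk tissue, fewer cells of a type and less RNA per cell cannot be told apart. The 4 mice at 150 and 200 cGy also differed from the rest. Across 9702 genes, the deviation of a library from the gene means correlated with GC content at -0.403 to -0.351 in these 4 mice and at -0.018 to 0.286 in the other 16, so GC-rich genes were lower in the 4 libraries.

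Eln was the most abundant of the elastic fibre genes and the 11th most abundant gene of the whole table by mean count. It lies on chromosome 5 from 135179651 to 135223111, minus strand (mm9, as are all gene positions below). Divided by the length of its exons, its median level was 9823 counts per kb with an SD of 2697 over 20 mice. Mfap4 followed at 2555 counts per kb (SD 297), and Loxl1 at 714 (SD 133). Eln exceeded Mfap4 and Mfap4 exceeded Loxl1 in 20 of 20 mice, and neither pair overlapped in range. Fbln5, Mfap5 and Lox formed a group with Loxl1, at 645, 605 and 546 counts per kb. Loxl1 exceeded Fbln5 in 10 of 20 mice, Fbln5 exceeded Mfap5 in 15 and Mfap5 exceeded Lox in 15, and the ranges of these neighbours overlapped. Lox exceeded Efemp2 in 20 of 20 mice without overlap. Efemp2, Fbn1, Fbln1 and Fbln2 were the lowest per length, at 273, 244, 184 and 152 counts per kb. Their neighbouring ranges overlapped, with the upper gene of a pair ahead in 16, 13 and 16 of 20 mice. Fbn1 had a higher mean count than Loxl1, at 3026 against 2260 reads, and was lower per length because its exons span 12.1 kb against 3.34 kb. When the longest coding transcript replaced the union of exons, Mfap5 rose to 1443 counts per kb, above Loxl1, and Efemp2 to 406. Mfap4 went to 2852, Fbln1 to 219 and Fbln2 to 187, while the other genes kept values near those above. The range of Mfap4 then overlapped that of Mfap5, and the range of Lox that of Efemp2, with the upper gene still ahead in 20 of 20 mice.

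**Figure D1:**
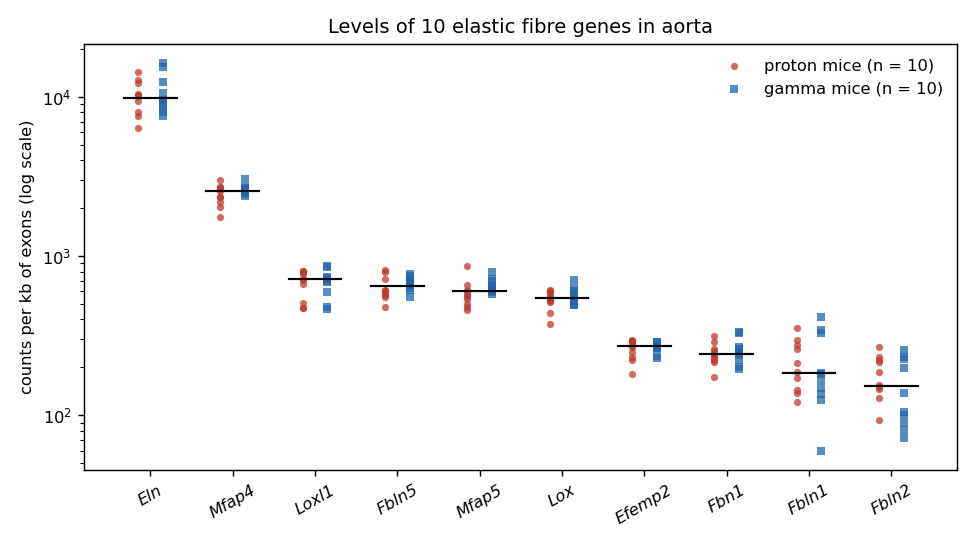
Counts per kb of exons on a log axis for the 10 elastic fibre genes, with 1 point per mouse (10 proton, 10 gamma) and a line at the median of 20 mice. Eln, at a median of 9823 counts per kb, and Mfap4, at 2555, sit apart from the other 8 genes, and Fbln1 and Fbln2 have the widest spread.

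Elastin forms the core of the fibre. In proton mice the Eln count ranged from 16474 at 75 cGy through a median of 26359.5 to 37191 at 5 cGy, and in gamma mice from 19671 at 125 cGy through a median of 24348.5 to 41963 at 5 cGy. The highest count came from the 5 cGy mouse in both radiation types, and the ranges of the radiation types overlapped widely. The 2 unexposed mice were far apart, at 32750 counts for proton and 21827 for gamma. The highest of all 20 mice was 2.55-fold the lowest. The fitted slope was -0.29 (SE 0.15) log2 per 100 cGy after protons and -0.34 (SE 0.16) after gamma rays, with adjusted p-values of 0.422 and 0.242 in the edgeR quasi-likelihood test. Neither slope passed the threshold of 0.1. Fitted to 0 to 125 cGy only, the slopes of Eln were -0.58 after protons and -0.46 after gamma rays (edgeR adjusted p 0.983 and 0.928). The scatter of Eln around its fitted lines had an SD of 0.35 on the log2 scale, larger than that of 87.1% of 9817 genes averaging 50 counts or more, although counting error at this depth amounts to 0.610% of the count.

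Fibrillin-1 builds the microfibrils on which elastin is deposited, and its gene is mutated in Marfan syndrome. Fbn1 lies on chromosome 2 from 125126330 to 125333729, minus strand, and overlaps Gm9913 on the other strand, from which the stranded counting separates it. Its count ranged in proton mice from 2103 at 75 cGy through a median of 2905 to 3806 at 150 cGy, and in gamma mice from 2359 at 0 cGy through a median of 3063.5 to 4024 at 150 cGy. The 4 mice at 150 and 200 cGy held the 4 highest counts, at 3502 to 4024 against 2103 to 3235 in the other 16 mice, with no overlap. Fbn1 was the only member whose 4 counts all lay above those of the other mice, as did 6.8% of all genes tested. The slope after gamma rays was 0.31 (SE 0.09) log2 per 100 cGy, with an edgeR adjusted p of 0.0584. After protons the slope was 0.20 (SE 0.09) with an adjusted p of 0.332.

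Loxl1, a lysyl oxidase relative that cross-links tropoelastin and is tethered to the fibre by fibulin-5, was the other gene that changed with gamma dose. It lies on chromosome 9 from 58135530 to 58161019, minus strand. Its count ranged in proton mice from 1568 at 200 cGy through a median of 2394 to 2685 at 5 cGy, and in gamma mice from 1547 at 200 cGy through a median of 2364.5 to 2878 at 50 cGy. The 4 mice at 150 and 200 cGy held the 4 lowest counts, at 1547 to 1598 against 1698 to 2878 in the other 16 mice. Loxl1 was the only member whose 4 counts all lay below those of the other mice, as did 2.47% of all genes tested. The slope after gamma rays was -0.40 (SE 0.11) log2 per 100 cGy, with an edgeR adjusted p of 0.0434. After protons it was -0.29 (SE 0.10) with an unadjusted edgeR p of 0.0128 and an adjusted p of 0.221.

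In the edgeR test, then, 1 of 10 members rose and 1 fell with gamma dose, where 5.44% of all genes tested rose and 2.21% fell. DESeq2 called 708 genes up and 487 down with gamma dose against 714 and 290 by edgeR, and called Fbn1 and Loxl1 in the same directions. After protons, 0 of 10 members passed in either direction, where 1.6% of all genes rose and 0.16% fell. By edgeR 2 members, Fbn1 and Loxl1, had an unadjusted p under 0.05 after protons, as did 1283 genes with a rise and 462 with a fall among all 13124, and DESeq2 called 0 members too. After gamma rays 3 members, Eln with Fbn1 and Loxl1, had such a p, as did 1505 genes with a rise and 908 with a fall. Slopes lay below 0 for 8 of 10 members in each radiation type, with medians of -0.12 after protons and -0.11 after gamma rays, against 0.00 and 0.01 over all genes. These 8 slopes come from the same mice and are not independent of each other.

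Both calls were lost without the mice at 150 and 200 cGy. Fitted to 0 to 125 cGy only, the gamma slopes were 0.19 for Fbn1 and -0.26 for Loxl1 with adjusted p-values of 0.962 and 0.936, in a fit of 16 mice that called 29 genes up and 5 down in all. Leaving out single gamma mice cost calls while the slopes stayed near their size. Without the mouse at 150 cGy the slopes were 0.28 for Fbn1 and -0.35 for Loxl1, and without that at 200 cGy they were 0.31 and -0.39. In both fits 0 members were called by edgeR, and calls over all genes dropped from 714 up and 290 down to 166 and 30 in the former and to 54 and 23 in the latter. Fbn1 also missed the threshold without the mouse at 0 cGy, at 0.27, or at 25 cGy, at 0.28, and Loxl1 without that at 5 cGy, at -0.38. The exons of Loxl1 have a GC content of 60.8%, those of Eln 62.6% and those of Fbn1 52.3%, against a median of 50.4% for the genes tested. When GC content and gene length were corrected for, the gamma slope was 0.16 for Fbn1, with an adjusted p of 0.456, and -0.26 for Loxl1, with an adjusted p of 0.134. The highest doses and the GC pattern lie in the same 4 libraries and cannot be told apart.

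**Figure D2:**
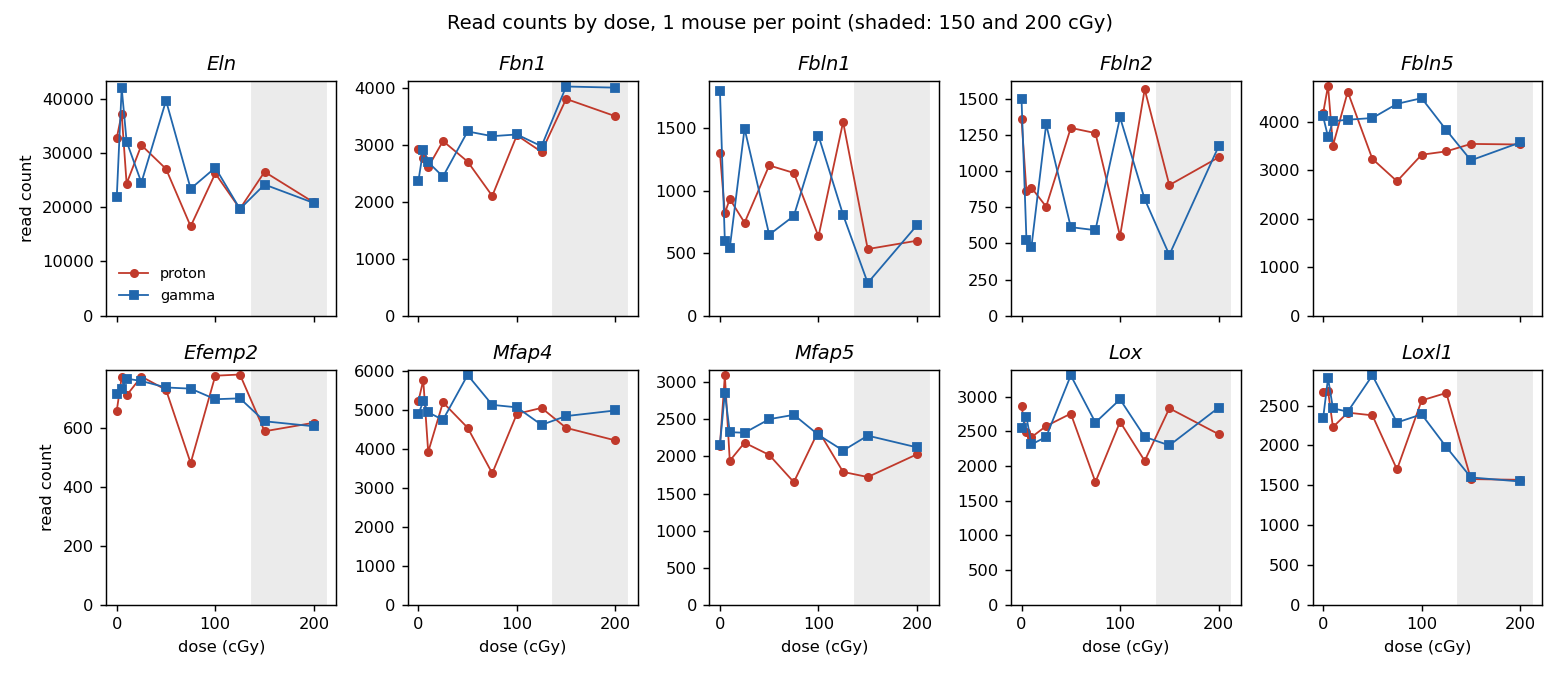
Read counts of the 10 elastic fibre genes against dose in cGy, with 1 mouse per point, proton mice as red circles and gamma mice as blue squares, and a shaded band over 150 and 200 cGy. The 4 shaded mice are the highest for Fbn1 (3502 to 4024) and the lowest for Loxl1 (1547 to 1598), and the proton mouse at 75 cGy is the lowest for 7 genes.

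Ranks were also tested against dose within each radiation type by exact permutation, which called 0 of 10 members. After gamma rays 3 members, Fbn1, Loxl1 and Efemp2, had an unadjusted exact p under 0.05, as did 1908 genes for a rise and 1163 for a fall among all 13124. Fbn1 had a Spearman correlation of 0.830 with dose over 10 mice, with an exact one-sided adjusted p of 0.104, and Loxl1 one of -0.721 with an exact adjusted p of 0.310. Over all genes this test called 1.9% up and 0.411% down after gamma rays. On TMM-scaled values the split was 111 up and 111 down, against 250 and 54 on the deposited counts, again with 0 members. After protons it called 0.198% up and 0% down, with 718 genes at an unadjusted exact p under 0.05 for a fall. Loxl1 and Eln were 2 of these, both with a correlation of -0.648 and an exact adjusted p of 0.833.

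The other microfibril genes showed no call. Mfap4 encodes a glycoprotein of the fibrinogen-related family that binds fibrillin and tropoelastin, and lies on chromosome 11 from 61298933 to 61302402, plus strand, overlapping Mapk7 on the other strand. Its count ranged from 3370 at 75 cGy to 5755 at 5 cGy in proton mice, with a median of 4714.5. In gamma mice it ranged from 4611 at 125 cGy to 5888 at 50 cGy, with a median of 4955.5. The gamma range lay within 1.28-fold, and the slope was -0.09 (SE 0.09) after protons and -0.04 (SE 0.09) after gamma rays. Leaving out the proton mouse at 5 cGy gave -0.03 and leaving out that at 10 cGy gave -0.14.

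Mfap5, a small glycoprotein that coats fibrillin microfibrils, lies on chromosome 6 from 122455863 to 122479308, plus strand. Its count ranged from 1654 at 75 cGy to 3093 at 5 cGy in proton mice and from 2080 at 125 cGy to 2857 at 5 cGy in gamma mice, with medians of 2025.5 and 2305.5. As for Eln, the 5 cGy mouse was the highest in both radiation types. The slopes of Mfap5 were -0.17 (SE 0.10) and -0.12 (SE 0.10), with edgeR adjusted p-values of 0.498 and 0.627. The proton slope was -0.06 without the mouse at 5 cGy and -0.29 without that at 200 cGy, and the gamma slope -0.07 without the mouse at 5 cGy.

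Lox, the founding lysyl oxidase, starts the cross-linking of elastin and collagen and lies on chromosome 18 from 52675723 to 52689521, minus strand. It ranged from 1771 at 75 cGy to 2860 at 0 cGy in proton mice and from 2299 at 150 cGy to 3308 at 50 cGy in gamma mice, with medians of 2532 and 2591.5. Its slopes were -0.03 (SE 0.10) after protons and 0.01 (SE 0.10) after gamma rays. The 95% intervals, -0.23 to 0.18 and -0.20 to 0.22, hold slopes of either sign. A difference in slope between Lox and Loxl1 was not tested.

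Among the fibulins, Fbln5 and Efemp2 were the steadier pair. Fibulin-5 binds tropoelastin, integrins and Loxl1, and its gene lies on chromosome 12 from 102984775 to 103057265, minus strand. Its count ranged from 2775 at 75 cGy to 4744 at 5 cGy in proton mice and from 3206 at 150 cGy to 4489 at 100 cGy in gamma mice. Efemp2 encodes fibulin-4, which brings lysyl oxidase to the forming fibre and whose loss causes aortic aneurysm, and lies on chromosome 19 from 5473973 to 5481853, plus strand. It ranged from 482 at 75 cGy to 783 at 125 cGy in proton mice and from 607 at 200 cGy to 769 at 10 cGy in gamma mice. The 4 mice at 150 and 200 cGy had 590 to 624 Efemp2 reads, below every other mouse except for the 482 of protons at 75 cGy, and the lowest of the remainder was 660. The gamma slope of Efemp2 was -0.16 (SE 0.08) with an edgeR adjusted p of 0.315. Without the proton mouse at 75 cGy, which shares the estimate of spread, it was -0.17 with an edgeR adjusted p of 0.0757 and passed the threshold. In that fit gamma calls over all genes went from 714 up and 290 down to 941 up and 642 down. Efemp2 has a GC content of 58.8%. With the GC and length correction its gamma slope was -0.04 (edgeR adjusted p 0.924). Fbln5 had slopes of -0.16 (SE 0.09) and -0.10 (SE 0.09), with edgeR adjusted p-values of 0.477 and 0.651. Its proton slope was -0.26 without the mouse at 200 cGy, and its gamma slope -0.05 without the mouse at 150 cGy.

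**Figure D3:**
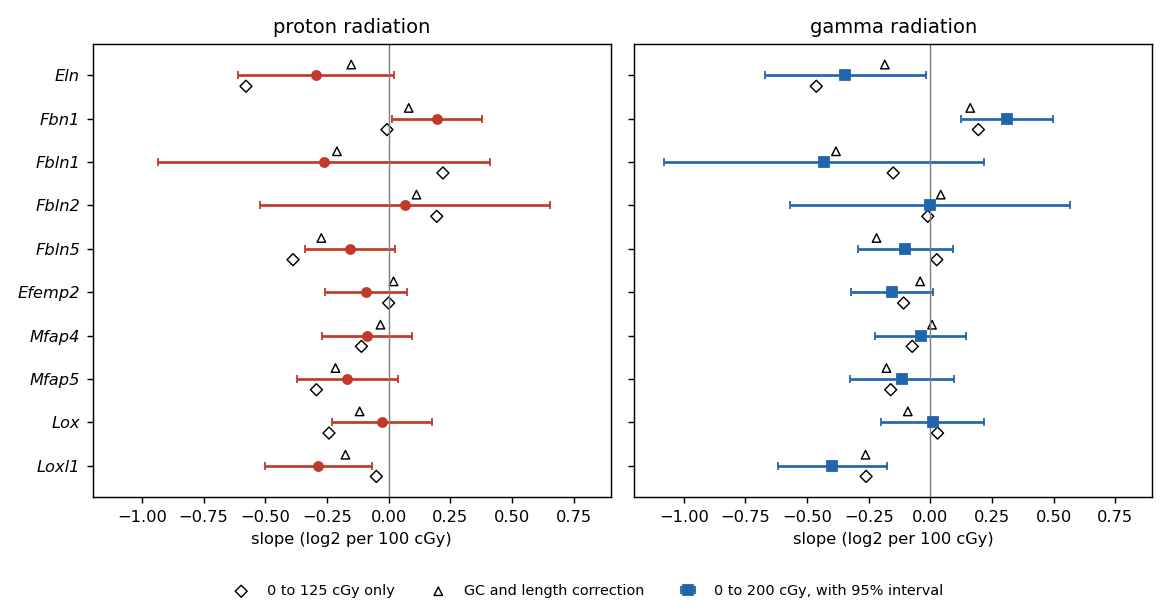
Fitted dose slopes in log2 per 100 cGy for each gene after proton (left) and gamma radiation (right), as filled symbols with 95% intervals, with open diamonds for the fit to 0 to 125 cGy and open triangles for the fit corrected for GC content and length. The gamma intervals of Fbn1 (0.31) and Loxl1 (-0.40) lie clear of 0, and that of Eln (-0.34) excludes it narrowly, at -0.67 to -0.02. The gamma slopes of Fbn1 and Loxl1 move toward 0 under either alternative. That of Eln is -0.46 over 0 to 125 cGy and -0.18 with the correction.

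Fbln1 and Fbln2 varied far more between mice than the other members, and they varied together. Fibulin-1 is found in elastic fibres, basement membranes and blood, and fibulin-2 binds tropoelastin and fibrillin. Fbln1 lies on chromosome 15 from 85036379 to 85116965, plus strand, and Fbln2 on chromosome 6 from 91162449 to 91222534, plus strand. Their upstream sequence is shown because their counts rose and fell in the same mice, together with that of Fbn1, which moved against Fbln1. RefSeq promoter windows on GRCm38.p6 were at hand for 5 of the 10 members. The 100 bases before the annotated start of each gene are given 5′ to 3′ on the gene's strand, with matches to GGGCGG, the core of a GC box, in capitals on either strand:
Fbln1, chr15:85205849-85205948, plus strand, the more upstream of its 2 windows: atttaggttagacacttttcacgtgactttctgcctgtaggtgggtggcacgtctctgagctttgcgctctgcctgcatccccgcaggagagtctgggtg
Fbln2, chr6:91212664-91212763, plus strand: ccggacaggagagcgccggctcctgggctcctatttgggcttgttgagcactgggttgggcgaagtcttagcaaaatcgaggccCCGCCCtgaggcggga
Fbn1, chr2:125506439-125506538, minus strand: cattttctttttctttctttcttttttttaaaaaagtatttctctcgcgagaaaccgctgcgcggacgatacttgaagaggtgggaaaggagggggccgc

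In the 250 bases before the start, Fbln2 and Fbn1 each held 1 match to GGGCGG and the more upstream window of Fbln1 held none, where 32.7% of 32851 windows held at least 1. The second window of Fbln1, which begins a little downstream and overlaps the first, held 1. That of Fbn1 lies upstream of the bases shown. None of these windows held CCAAT on either strand, as 33.8% of all windows did. The same was true of TATAAA, held by 12.4% of all windows. It was also true of the AP-1 site TGANTCA, held by 6.75%, and of the CArG box of serum response factor, held by 1.47%. GC content over the 250 bases was 46.4% and 62.4% for the first and second window of Fbln1, 58.8% for Fbln2 and 59.2% for Fbn1, against a median of 52.4%.

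The Fbln1 count ranged from 533 at 150 cGy to 1549 at 125 cGy in proton mice, with a median of 877. In gamma mice it ranged from 262 at 150 cGy to 1800 at 0 cGy, with a median of 761. Over all 20 mice the highest count was 6.87-fold the lowest. Both unexposed mice were high for Fbln1, at 1303 and 1800, but so were the mice at 125 cGy protons and 100 cGy gamma rays. Fbln2 ranged from 551 at 100 cGy to 1567 at 125 cGy in proton mice, and from 421 at 150 cGy to 1502 at 0 cGy in gamma mice, with medians of 1000 and 710. The scatter around the fitted lines had an SD of 0.66 for Fbln1 and 0.61 for Fbln2 on the log2 scale, larger than that of 96.8% and 96.2% of 9817 genes, whose median was 0.18. Counting error amounts to 3.28% and 3.21% of these counts, against a coefficient of variation over mice of 44.5% and 38.4%. None of the 4 slopes passed the threshold. The gamma slope of Fbln1 was the lowest among the members at -0.43, but with an SE of 0.31 and an edgeR adjusted p of 0.530, and its 95% interval ran from -1.08 to 0.22. It was -0.21 without the gamma mouse at 0 cGy and -0.23 without that at 150 cGy, smaller in size than the slope of Loxl1. Over all fits that left out 1 mouse, the gamma slope of Fbln1 ran from -0.62 to -0.21. The proton slope of Fbln1, -0.26, was -0.45 without the proton mouse at 125 cGy, -0.14 without that at 150 cGy and -0.12 without that at 200 cGy.

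Over the 20 mice the log2 levels of Fbln1 and Fbln2 correlated at r = 0.831 and rho = 0.824. The permutation p-values, adjusted over 45 pairs of members, were 0.00045 and 0.00135. The value of r was 0.767 without the 2 mice farthest from the median, 0.730 within proton mice, 0.883 within gamma mice and 0.965 over the 16 mice at 0 to 125 cGy. The 4 mice at 150 and 200 cGy had 0.547 to 0.622 Fbln1 reads for each Fbln2 read, and the other 16 had 0.903 to 1.35. This ratio was not a planned comparison, and the share of other gene pairs that separate these mice was not computed. Of all single genes tested, 6.8% had counts in these 4 mice all above those of the other 16, and 2.47% all below.

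Markers of several cell types varied with these genes over the same mice. The summed macrophage markers ranged from 91.0 to 559 CPM and correlated with Fbln2 at r = 0.935 and rho = 0.928, with permutation p-values, adjusted over 90 relations of 9 marker lists with 10 members, of 0.000225 and 0.00045. Without the 2 farthest mice r was 0.923, and it was 0.920 within proton mice, 0.933 within gamma mice and 0.930 at 0 to 125 cGy. Endothelial markers, at 551 to 1493 CPM, correlated with Fbln2 at r = 0.879 and rho = 0.806 (permutation p adjusted 0.000225 and 0.0018). Without the 2 farthest mice that r was 0.847, and it was 0.874 within proton mice, 0.903 within gamma mice and 0.943 at 0 to 125 cGy. Fbln1 followed the fibroblast and adventitia markers at r = 0.844 and rho = 0.765 (permutation p adjusted 0.000225 and 0.0036), with r = 0.716 without the 2 farthest mice, 0.773 and 0.909 within proton and gamma mice and 0.713 at 0 to 125 cGy. It also followed the macrophage markers at r = 0.763 and rho = 0.755 (permutation p adjusted 0.00072 and 0.0036), with r = 0.735 without the 2 farthest mice, 0.686 and 0.798 within proton and gamma mice and 0.916 at 0 to 125 cGy. Lymphocyte markers, at only 1.69 to 18.7 CPM, followed Fbln2 at r = 0.866 and rho = 0.857 (permutation p adjusted 0.000225 and 0.00045), with r = 0.843 without the 2 farthest mice, 0.775 and 0.912 within proton and gamma mice and 0.870 at 0 to 125 cGy. They followed Fbln1 at r = 0.757 and rho = 0.722 (permutation p adjusted 0.0012 and 0.00562), with r = 0.720 without the 2 farthest mice, 0.617 and 0.807 within proton and gamma mice and 0.869 at 0 to 125 cGy. Neural and Schwann cell markers ran against Fbln2 at r = -0.605 and rho = -0.614 (permutation p adjusted 0.0379 and 0.0342), with r = -0.535 without the 2 farthest mice, -0.326 and -0.753 within proton and gamma mice and -0.569 at 0 to 125 cGy. Of the 8 macrophage symbols, which hold both Adgre1 and its earlier name Emr1, 7 were in the table and none of these was at 0 in all mice. Smooth muscle markers ran against Fbln2 at rho = -0.747 and against Fbln1 at rho = -0.698 (permutation p adjusted 0.00424 and 0.00945). The values of r, -0.481 and -0.405, did not pass (permutation p adjusted 0.0592 and 0.155). Without the proton mouse at 75 cGy r was -0.682 and -0.594. Within proton mice r was -0.347 and -0.316, and within gamma mice -0.737 and -0.630. The part of tissue composition in the spread of Fbln1 and Fbln2 was not tested.

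**Figure D4:**
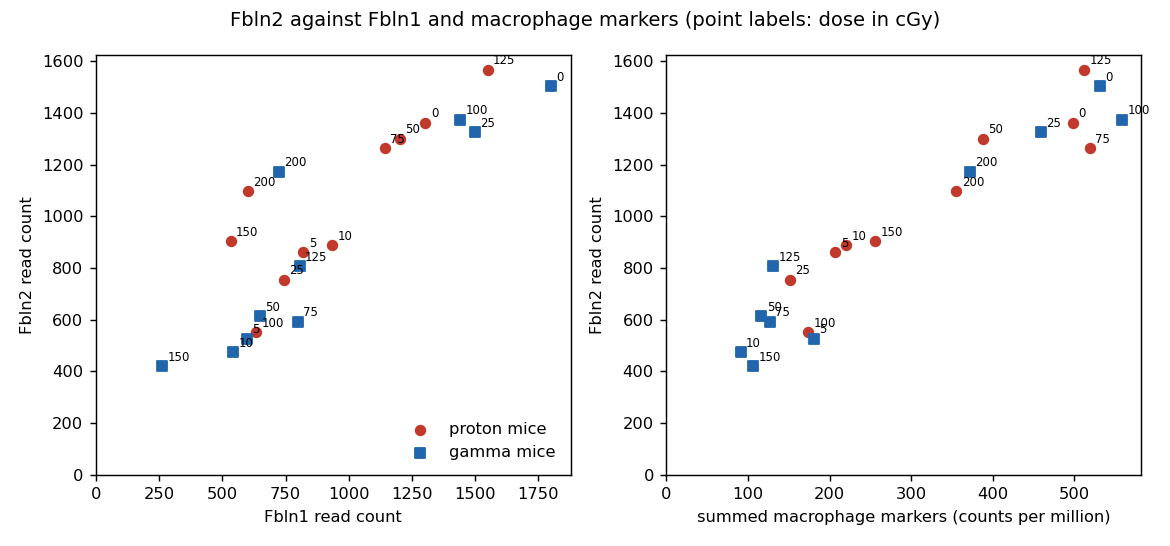
Read count of Fbln2 against the read count of Fbln1 (left) and against the summed macrophage markers in CPM (right), with 1 point per mouse, coloured by radiation type and labelled with the dose in cGy. Points rise together in both panels (r = 0.831 and r = 0.935 on log2 levels). Mice at 150 and 200 cGy had 262 to 724 Fbln1 reads, below the median of 802 over 20 mice. Their Fbln2 reads ran from 421 to 1172. Mice at 0 to 125 cGy had 542 to 1800 Fbln1 reads and 473 to 1567 Fbln2 reads.

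Mfap5 went the other way from endothelium, with r = -0.710 and rho = -0.737 against the endothelial markers (permutation p adjusted 0.00206 and 0.0036). That r was -0.729 without the 2 farthest mice, -0.705 within proton mice, -0.757 within gamma mice and -0.719 at 0 to 125 cGy. Eln did not pass the adjusted threshold of 0.05 against smooth muscle markers, at r = 0.530 and rho = 0.361 (permutation p adjusted 0.0530 and 0.280), and r was 0.435 without the 2 farthest mice, 0.574 and 0.525 within proton and gamma mice and 0.320 without the proton mouse at 75 cGy.

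Of the 45 pairs of members, 13 passed at an adjusted p of 0.05 for both r and rho, 11 with a positive and 2 with a negative correlation. Of these, 10 were among the 21 pairs of the 7 members other than Fbn1, Fbln1 and Fbln2. The 7 were not a planned group, and each of the 2 negative pairs includes a member left out of it. In those 21 pairs r ran from 0.306 to 0.784, and from -0.164 to 0.841 without the proton mouse at 75 cGy. Without that mouse Efemp2 with Mfap4 went from 0.700 to 0.398, and Efemp2 with Loxl1 from 0.784 to 0.841. The negative pairs were Fbln2 with Mfap5 and Fbn1 with Fbln1. Fbln2 and Mfap5 correlated at r = -0.512 and rho = -0.573 (permutation p adjusted 0.0429 and 0.0353), with r = -0.554 without the 2 farthest mice, -0.473 and -0.543 within proton and gamma mice and -0.583 at 0 to 125 cGy. Fbn1 and Fbln1 correlated at r = -0.689 and rho = -0.680 (permutation p adjusted 0.00444 and 0.0104), with r = -0.785 without the 2 farthest mice, -0.691 and -0.707 within proton and gamma mice and -0.528 at 0 to 125 cGy. Efemp2 and Loxl1, the fibulin and the oxidase that were low at the highest doses, correlated at r = 0.784 and rho = 0.783 (permutation p adjusted 0.00045 and 0.002025), with r = 0.807 without the 2 farthest mice, 0.785 and 0.904 within proton and gamma mice and 0.766 at 0 to 125 cGy. Mfap4 and Mfap5 correlated at r = 0.765 and rho = 0.758 (permutation p adjusted 0.0021 and 0.00315), with r = 0.705 without the 2 farthest mice, 0.736 and 0.687 within proton and gamma mice and 0.790 at 0 to 125 cGy. Eln correlated with Mfap5 at r = 0.738 and rho = 0.579 (permutation p adjusted 0.00216 and 0.0353), with r = 0.640 without the 2 farthest mice, 0.786 and 0.850 within proton and gamma mice and 0.802 at 0 to 125 cGy.

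The 3 genes whose levels were most like those of Eln, by rank correlation over 20 mice among genes averaging 50 counts or more, were St3gal5 at 0.844, Nes at 0.838 and Adamts10, a metalloprotease of microfibrils, at 0.776. For Fbn1 they were Eif2c1 at 0.884, Dopey1 at 0.880 and Fam160b1 at 0.878, and for Lox they were Tceal1 at 0.680, Vgll3 at 0.674 and Tgfb2, a TGF-beta ligand, at 0.669. Fbln1, Fbln2 and Loxl1 were looked up after their values had been seen. Fbln1 was most like Pcolce, an enhancer of procollagen processing, at 0.973, Fbln2 like Stab1, a scavenger receptor of macrophages and sinusoidal endothelium, at 0.961, and Loxl1 like Htra3, a secreted protease, at 0.907. These correlations share the same 20 libraries and their composition.

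Radiation types were compared directly in the slopes and at matched doses. The slope differed between protons and gamma rays for 0 of 10 members and 0% of all genes by edgeR, with 254 genes and 0 members at an unadjusted p under 0.05, and DESeq2 called 0 members as well. The estimates were small next to their intervals. The proton slope minus the gamma slope was 0.11 for Loxl1 (95% interval -0.19 to 0.42) and -0.11 for Fbn1 (95% interval -0.38 to 0.15). The calls of Fbn1 and Loxl1 after gamma rays are therefore not shown to differ from their slopes after protons. With dose as a block, proton and gamma mice differed for 0 of 10 members and 0% of all genes by edgeR, with 1032 genes at an unadjusted p under 0.05, and DESeq2 called 0 members among 17 genes higher and 53 lower after protons. Mfap5 was the only member with an unadjusted p under 0.05, at -0.20 log2 (SE 0.07, adjusted p 0.513). Fbln2 had the widest gap at 0.34 log2, with a 95% interval of -0.23 to 0.92. The sign of that shift is therefore unresolved.

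Genes that assemble with the elastic fibre were described as a wider list of 30, of which 27 were tested, with Fbn2, Emilin3 and Adamts17 too low. With gamma dose 1 of the 27 rose and 4 fell, where 5.44% of all genes tested rose and 2.21% fell. Emilin1, which lies between elastin and microfibrils, had a slope of -0.39 (SE 0.09, edgeR adjusted p 0.0292), with counts from 1078 to 1995 in gamma mice. Adamtsl4, a microfibril-binding protein of the lens zonule, had a slope of -0.36 (SE 0.09, adjusted p 0.0364), and Tnxb, a tenascin associated with collagen, one of -0.34 (SE 0.10, adjusted p 0.0537). Ltbp3, a latent TGF-beta binding protein, fell as well, by 0.24 on the log2 scale (adjusted p 0.0916). It ranked below the 4 genes chosen by p and was named after its value was seen. The gene that rose was Atp7a, the copper pump that loads lysyl oxidases, with a slope of 0.86 (SE 0.25, adjusted p 0.0603).

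After protons 1 gene of the list rose and 2 fell, where 1.6% of all genes rose and 0.16% fell. They were again Atp7a at 1.05 (SE 0.25, adjusted p 0.0591), Tnxb at -0.40 (SE 0.09, adjusted p 0.0566) and Adamtsl4 at -0.35 (SE 0.09, adjusted p 0.0870). Atp7a rests on few reads, with counts of 55 to 72 in the 4 mice at 150 and 200 cGy and of 12 to 31 in the other 16. Counts of these 4 mice lay above all others for 6.8% of all genes tested. The median slope of the list was -0.16 after protons and -0.15 after gamma rays, against 0.00 and 0.01 over all genes. The 4 genes that fell have GC contents of 60.1 to 61.5%, and Atp7a one of 44.6%. After the GC and length correction 0 genes of the list were called by edgeR after protons, with 7 at an unadjusted p under 0.05, and 1 after gamma rays, Adamtsl4 at -0.25 (edgeR adjusted p 0.0711), with 8 at an unadjusted p under 0.05. The slopes of Tnxb were then -0.42 after protons and -0.37 after gamma rays, and those of Atp7a 0.94 and 0.76, close to or past the uncorrected values. Over 0 to 125 cGy 0 were called by edgeR in either radiation type, with 1 and 0 at an unadjusted p under 0.05. Without the proton mouse at 75 cGy the falls numbered 4 after protons and 8 after gamma rays, with 1 rise in each, and over all genes falls went from 21 to 97 and from 290 to 642. Proteases that degrade elastin and their inhibitors, with matrix metalloproteinases and Timp genes among them, made a list of 20 with 14 tested. Mmp7, Mmp12, Ctsv, Elane, Serpina1a and Slpi were not tested. The 14 gave 0 calls in either radiation type by edgeR, with 0 and 1 at an unadjusted p under 0.05, and medians of -0.02 and -0.04.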

How the data were processed

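Aortic polyA RNA of 20 mice was sequenced. According to the submitters' processing notes and the study's methods, the authors aligned stranded reads with STAR 2.5.2a to mm9 and resampled the libraries to a common depth with the PORT pipeline. The deposited values are whole-number counts of sense reads per gene. At this depth 3 counts, 4.95e-05% of a library, were taken as the floor, which covers counting error only. All gene identifiers matched GENCODE M1, whose coordinates and exon lengths were used, and the intervals of the deposited table extend 202 bases beyond them on either side.

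Genes averaging 5 counts or more were tested in edgeR 4.0.16 (TMM, robust quasi-likelihood) with an intercept and slope per radiation type, and in a model with dose as a block. Each radiation type was also tested by an exact one-sided permutation of rank correlation with dose. Adjusted p-values are by Benjamini-Hochberg over all 13124 genes with a threshold of 0.1. Correlations across mice used log2 levels, 100000 two-sided permutations and an adjustment over each family. Both dose tests were tried on simulated data first. The members and lists were chosen with earlier results of these data known. Named genes were the 10 members, up to 4 called genes with the smallest p per list and radiation type, and the 3 genes most like Eln, Fbn1 and Lox. The alternatives were DESeq2 1.42.0, no TMM factors, filters at mean counts of 1 and 50, dose as rank or log2(dose + 1), a GC and length correction, 0 to 125 cGy only, 1 surrogate variable (sva 3.50.0), no dose block, a Pearson trend, transcript length, and leaving out each mouse. Calculations used R 4.3.3 and Python 3.11.15. Intron counts and antisense reads were not used here.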

Additional observations from a re-analysis of the deposited data

Results flagged for a closer look

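Mfap4 in gamma mice was highest at 50 cGy, where 5888 counts stood apart from the next highest mouse at 5219, a gap of 0.524 of the range of the 10 mice. Mfap5 in proton mice was highest at 5 cGy, where 3093 counts stood apart from the next highest mouse at 2346, a gap of 0.519 of the range. Both gaps exceed Dixon's critical value of 0.466 for 10 samples. Of 20 groups of 10 mice examined, 1 per gene and radiation type, 2 passed, and chance alone passes about 1 in 20. The mice of a group differ in dose, so these are single mice at a dose and not replicates that disagree.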

How the results depend on the processing

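The design gives 1 mouse per dose, so each slope rests on few mice at its ends. Of the 10 members, 2 were called with gamma dose. The number was 0 over 0 to 125 cGy, over 0 to 125 cGy with GC and length correction (chosen after seeing the data), with that correction alone, and with log2(dose + 1). It was 1, Fbn1, with dose as rank. Over all genes that correction alone called 209 up and 108 down, log2(dose + 1) 38 and 7, and dose as rank 335 and 145. Leaving out 1 mouse gave 0 to 3 members with gamma dose and 0 to 1 with proton dose, where Loxl1 was called without the proton mouse at 125 cGy at -0.35 (edgeR adjusted p 0.0632). The gamma trend test called 2 members with Pearson correlation, Efemp2 and Fbn1, where it called 633 of all 13124 genes up and 93 down. At a mean count of at least 50 it called 1 member, Fbn1, with 308 of 9817 genes up and 80 down. The main trend test called 250 genes up and 54 down. Transcript length moved the level of Mfap5 to 1443 and of Efemp2 to 406 counts per kb. Without the dose block, in place of the pairing of mice by dose, the comparison of protons with gamma rays called 0 members, with Mfap5 at -0.18.

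Members that did not pass the test changed sign as follows. Over 0 to 125 cGy the proton slopes were -0.0066 for Fbn1, 0.22 for Fbln1 and 0.00029 for Efemp2, the gamma slope of Fbln5 was 0.026 and the slope difference of Eln was -0.12. With GC and length correction added to these doses, they were 0.22 for Fbln1 after protons, 0.015 for Fbln2 and 0.014 for Fbln5 after gamma rays, and -0.17 for the difference of Eln. With the correction alone, the proton slope of Efemp2 was 0.020, and the gamma slopes were 0.042 for Fbln2, 0.0064 for Mfap4 and -0.092 for Lox. With log2(dose + 1) the proton slope of Fbln2 was -0.0067 and the difference of Eln -0.032, which was -0.0089 with 1 surrogate variable. The gamma slope of Lox was -0.0022 by DESeq2 and -0.0053 at a mean count of at least 1. Leaving out 1 mouse moved the slopes of Lox between -0.082 and 0.012 after protons and between -0.061 and 0.058 after gamma rays, those of Fbln2 between -0.025 and 0.18 and between -0.33 and 0.23, and the difference of Eln between -0.055 and 0.16. The causes were not tested.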
